A study of Mus musculus with 2 samples.

Results

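The mature microRNA (miRNA) strands mmu-miR-203-3p, mmu-miR-31-5p, mmu-miR-205-5p, mmu-miR-375-3p and mmu-miR-7a-1-3p were followed in mouse liver. These strands belong to miRNA families known as markers of epithelial or endocrine cells, outside the miR-200 family. They were taken by name from the deposited table and make up 5 of its 281 mature miRNAs. Small RNA was sequenced from total liver RNA of C57BL/6 mice aged 3 months, with 1 wild-type library and 1 library whose genotype is labelled DICER1 mutant and whose columns in the table are headed hDICER1_Mut. The series is titled as a mouse model of DICER1 syndrome, and its design text names normal and cancerous liver. The species of the mutant gene, its variant, the promoter or allele that carries it, the number of animals behind each library and whether the mutant tissue was a tumour are not stated in the labels. Depth, as implied by the deposited RPM values, was 11432192 reads for the wild type and 18480608 for the mutant, so 1 wild-type read was worth 0.0875 RPM (read counts scaled to a common total) and 1 mutant read 0.0541 RPM. With 1 library per genotype there was no replicate check and no p-value. All intervals are 95% intervals that cover counting error only, and PCR copies are not independent molecules.

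A miRNA is cut from a hairpin by Dicer, whose RNase IIIb domain frees the strand on the 5′ side (5p) and whose RNase IIIa domain frees the strand on the 3′ side (3p). The strand that is loaded into Argonaute finds its targets through the seed, bases 2 to 8 of the strand. miR-203 promotes differentiation and limits proliferation in skin epithelium by repressing the transcription factor p63. miR-31 acts in skin and gut epithelium. miR-205 marks basal epithelial cells and represses the Zeb factors. miR-375 is abundant in pancreatic islet cells, where it restrains insulin secretion, and miR-7 is enriched in endocrine cells of the pancreas and in neurons.

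The mature sequences are shown because the seed sets each strand's targets and because a close relative could share reads with it. They were taken from RefSeq on GRCm38.p6, which matched 4 of the 5 strands by name. They run 5′ to 3′ with the seed in capitals.
miR-203-3p: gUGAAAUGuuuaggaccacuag
miR-203-5p: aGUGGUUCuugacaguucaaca
miR-203b-3p: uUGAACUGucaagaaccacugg
miR-31-5p: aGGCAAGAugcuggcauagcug
miR-205-5p: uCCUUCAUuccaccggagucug
miR-7a-1-3p: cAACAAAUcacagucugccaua
miR-7a-2-3p: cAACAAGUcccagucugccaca
miR-7b-3p: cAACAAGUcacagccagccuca
No other listed miRNA carried the seed of any of these 4 strands, among the 251 listed miRNAs with a RefSeq sequence, and the 4 seeds differed from each other. miR-7a-1-3p differed from miR-7a-2-3p, its counterpart from a second hairpin, at 3 of 22 bases, 1 of them in the seed. It differed from miR-7b-3p at 5 bases, also with 1 in the seed. Neither of these 2 relatives is listed, and they are not analysed here. The rule for counting reads that fit more than 1 miRNA is not stated in the labels.

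The hairpins lie apart in the genome and share no host gene. Mir203 is at chromosome 12, 112130880 to 112130955, plus strand, 3321 bases from the coding gene Aspg. The listed miR-203b-3p comes from the opposite strand of the same place, at 112130887 to 112130908, where it shares 20 positions with miR-203-5p. Mir31 (chromosome 4, 88910557 to 88910662, minus strand) overlaps an exon of the long noncoding RNA AL805899.1, and Mir205 (chromosome 1, 193507463 to 193507530, minus strand) an exon of the long noncoding RNA 4631405K08Rik. Mir375 (chromosome 1, 74900658 to 74900721, minus strand) lies 1350 bases from Cfap65, outside annotated genes. Mir7-1 (chromosome 13, 58392779 to 58392886, minus strand) lies within an intron of Hnrnpk, which encodes an abundant RNA-binding protein, on the same strand. These positions and hosts are those of GRCm38 in RefSeq and GENCODE M21, the assembly the labels name as mm10. The Mir203 hairpin is shown because both of its strands were listed, and the Mir7-1 hairpin because its listed strand is the 3p strand and not the well-studied miR-7a-5p. In each, the 3p strand is in capitals.
Mir203: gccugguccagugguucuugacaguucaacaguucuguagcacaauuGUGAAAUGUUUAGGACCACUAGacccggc
Mir7-1: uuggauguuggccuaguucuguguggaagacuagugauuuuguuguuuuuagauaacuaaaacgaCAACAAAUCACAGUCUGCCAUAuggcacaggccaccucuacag
Between the 5p and the 3p strand these hairpins leave 16 bases in Mir203 and 19 bases in Mir7-1, against 14 bases in both Mir31 and Mir205.

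The 5 strands did not move together between the livers. By RPM, miR-205-5p, miR-7a-1-3p and miR-375-3p were 9.36-fold, 7.64-fold and 6.62-fold higher in the mutant liver, all from low wild-type levels. The abundant miR-31-5p was nearly level, with a ratio of 1.11, and the most abundant, miR-203-3p, was 1.56-fold lower. Of the 5 strands, 3 were thus at least 2-fold higher with an interval on one side of equality, none was 2-fold lower, and 2 lay within 2-fold. Over the 276 listed miRNAs that reached 10 reads when both libraries were added, 62.0% were higher by this rule and 7.25% lower, so the members' count is close to the background of the table. The median log2 ratio of the 5 members was 2.73, beside 2.77 over all 276. In whole tissue, fewer cells of a type and less of a miRNA per cell cannot be told apart.

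**Figure D1:**
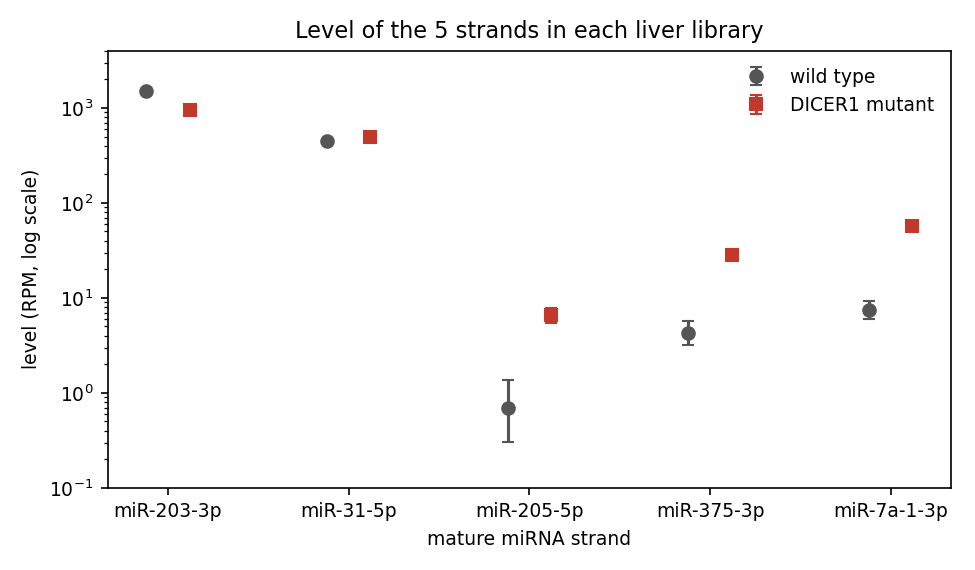
Level of each strand (RPM, log axis) in the wild-type library (grey circles) and the DICER1 mutant library (red squares), 1 library each; bars are exact 95% Poisson intervals of the read count. The mutant value is higher for miR-205-5p, miR-7a-1-3p and miR-375-3p, while miR-203-3p falls from 1491 to 956 RPM and miR-31-5p lies at 447 and 495 RPM.

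Among the stratified-epithelium markers, miR-203-3p had 17051 reads in the wild-type and 17667 in the mutant library. These are 1491 RPM (interval 1469 to 1514) and 956 RPM (interval 942 to 970), and the mutant was 1.56-fold lower (interval 1.53 to 1.59). It was the most abundant of the 5 in both livers, at rank 22 of the 281 listed miRNAs in the wild type and rank 37 in the mutant. miR-31-5p had 5109 and 9143 reads, or 447 RPM (interval 435 to 459) and 495 RPM (interval 485 to 505). The ratio was 1.11 (interval 1.07 to 1.15), a difference beyond counting error that was within 2-fold. Its rank fell from 31 to 53 although its RPM was higher, as many other listed miRNAs were higher by more. miR-205-5p, the basal-cell marker, was the rarest strand, with 8 wild-type and 121 mutant reads. That is 0.700 RPM (interval 0.302 to 1.38) against 6.55 RPM (interval 5.43 to 7.82), and with so few wild-type reads the 9.36-fold difference was known only to between 4.60-fold and 22.2-fold.

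Of the strands from endocrine-marker families, miR-375-3p had 49 wild-type and 524 mutant reads. The wild-type level was 4.29 RPM (interval 3.17 to 5.67) and the mutant level 28.4 RPM (interval 26.0 to 30.9), 6.62-fold higher (interval 4.93 to 9.06). miR-7a-1-3p had 86 and 1062 reads, or 7.52 RPM (interval 6.02 to 9.29) and 57.5 RPM (interval 54.1 to 61.0). The mutant was 7.64-fold higher (interval 6.13 to 9.63). Whether this 3p strand, unlike the well-studied miR-7a-5p, follows endocrine cells was not tested. Both endocrine strands stayed in the middle of the listed miRNAs by abundance, at ranks 136 and 129 for miR-375-3p and 112 and 105 for miR-7a-1-3p. Their ratios were also in the middle of the 276 tested miRNAs, miR-7a-1-3p at place 131 from the highest, and miR-205-5p was at place 115. miR-31-5p was at place 184 and miR-203-3p at place 228. The order of levels within each liver was the same: miR-203-3p, miR-31-5p, miR-7a-1-3p, miR-375-3p, miR-205-5p. In both libraries the counting intervals of neighbours in that order did not overlap.

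**Figure D2:**
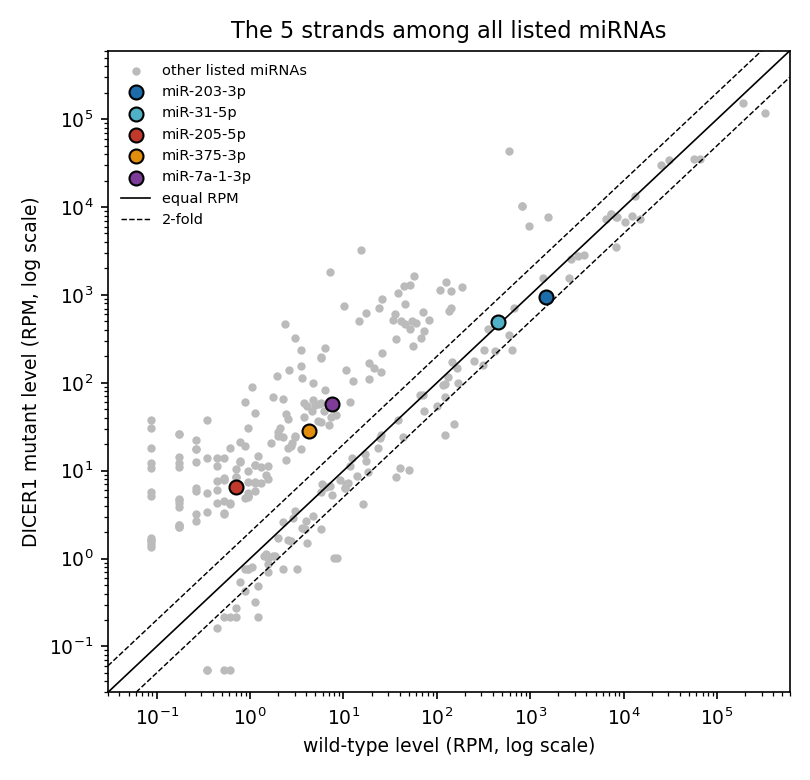
Wild-type level against mutant level (RPM, both axes log) of every listed miRNA, 1 grey point each, with the 5 strands in colour. The solid line marks equal RPM and the dashed lines 2-fold differences. miR-203-3p and miR-31-5p lie in the band near equality, and miR-205-5p, miR-7a-1-3p and miR-375-3p lie in the upper cloud.

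The empty band in this plot comes from how the table was made. The authors' deposited table holds only folds of at least 2, on a scale that makes each mutant to wild-type ratio 2.38-fold smaller than by RPM. By RPM, no tested miRNA therefore had a ratio between 1.19 and 4.78, and the distance between the 2 abundant and the 3 rare strands includes that gap. The authors' deposited table gives signed folds of -3.72 for miR-203-3p, -2.15 for miR-31-5p, 3.91 for miR-205-5p, 2.77 for miR-375-3p and 3.20 for miR-7a-1-3p. On that scale, 3 members were higher and 2 lower, where 62.0% of tested miRNAs were higher and 38.0% lower. miR-31-5p is one of 18 miRNAs that the authors' deposited table gives as lower although their RPM was higher in the mutant, and 12 of the 105 lower miRNAs had a higher RPM ratio than miR-31-5p.

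The members were also set beside listed miRNAs of the same strand type and abundance. Of the 3 members that are 3p strands, 2 were higher, against 74.3% of 144 listed 3p strands. Of the 2 that are 5p strands, 1 was higher, against 53.4% of 103 listed 5p strands. The 2 members with a mean of at least 100 RPM were not 2-fold higher, where 53.2% of the 79 such listed miRNAs were. All 3 members with a lower mean were higher, where 65.5% of 197 were.

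Mir203 was the only hairpin of the 5 with both strands listed, and its strands kept the same balance. miR-203-5p, the minor strand, had 29 wild-type and 30 mutant reads, which is 2.54 and 1.62 RPM. Its ratio of 0.640 (interval 0.371 to 1.10) was close to the 0.641 of miR-203-3p. The 5p strand made up 0.170% of the hairpin's reads in the wild type (exact interval 0.114 to 0.244%) and 0.170% in the mutant (interval 0.114 to 0.242%). The odds of 3p to 5p reads had a mutant to wild-type ratio of 1.002 (interval 0.580 to 1.73), which does not depend on the scaling of the libraries. A shift in strand balance smaller than these bounds was not detectable at 29 and 30 reads. The antisense strand miR-203b-3p, which is on none of the marker lists and is named here after its values were seen, had 207 and 180 reads, or 18.1 and 9.74 RPM. Its ratio was 0.538 (interval 0.438 to 0.660), 1.86-fold lower, so it was not past 2-fold. Against miR-203-3p its odds ratio was 0.839 (interval 0.683 to 1.03), which includes equality. The labels do not state whether reads were assigned by strand. The counts of miR-203-5p (29 and 30) and miR-203b-3p (207 and 180) differ, so they are not a single pooled count. Whether some reads were shared between them is not known. The other strands of Mir31, Mir205, Mir375 and Mir7-1 are not analysed here.

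The members can also be compared with each other within a library, which needs no scaling. Together they held 22303 wild-type and 28517 mutant reads. The direction of this sum between the livers, unlike the shares, depended on the scaling: the mutant to wild-type ratio was 0.791 by RPM, 1.06 with the listed counts as total and 0.120 with DESeq2 size factors, a comparison chosen after seeing the data. miR-203-3p made up 76.5% of the members' reads in the wild type (exact interval 75.9 to 77.0%) and 62.0% in the mutant (interval 61.4 to 62.5%). The share of miR-31-5p went from 22.9% (interval 22.4 to 23.5%) to 32.1% (interval 31.5 to 32.6%). The 3 rare strands had small shares that were all larger in the mutant. miR-7a-1-3p went from 0.386% to 3.72%, miR-375-3p from 0.220% to 1.84%, and miR-205-5p from 0.0359% to 0.424%. By RPM, which does depend on the scaling, the summed level of the rare strands was 12.5 RPM in wild-type and 92.4 RPM in mutant liver, 7.38-fold higher (interval 6.22 to 8.82). The spread between the most and least abundant member shrank from 2131-fold to 146-fold.

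Of the 10 pairs of members, 7 changed their read ratio between the libraries beyond counting error and 3 did not. The 7 include every pair of a rare with an abundant strand. Each of those pairs spans the range of RPM ratios, 1.19 to 4.78, in which no tested miRNA is listed. Any listed pair across that gap has a changed read ratio through how the deposited table was made, whatever its strands. There was 1 miR-7a-1-3p read for every 198 miR-203-3p reads in the wild type and for every 16.6 in the mutant, an odds ratio of 11.9 (interval 9.55 to 15.0). For miR-375-3p against miR-203-3p the odds ratio was 10.3 (interval 7.69 to 14.1), and for miR-205-5p it was 14.6 (interval 7.17 to 34.6). Against miR-31-5p the odds ratios were 6.90 for miR-7a-1-3p, 5.98 for miR-375-3p and 8.45 for miR-205-5p. The 2 abundant strands also parted: miR-31-5p gained on miR-203-3p with an odds ratio of 1.73 (interval 1.66 to 1.80), from 1 read per 3.34 reads of miR-203-3p to 1 per 1.93. The 3 pairs among the rare strands had intervals that included equality. miR-7a-1-3p and miR-375-3p, the endocrine pair, had 1.76 reads of the first per read of the second in the wild type and 2.03 in the mutant, an odds ratio of 1.15 (interval 0.783 to 1.69). The intervals for miR-205-5p with these 2 strands were wide, 0.282 to 1.56 for miR-375-3p over miR-205-5p and 0.333 to 1.74 for miR-7a-1-3p over miR-205-5p, so differences of that size were not detectable.

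**Figure D3:**
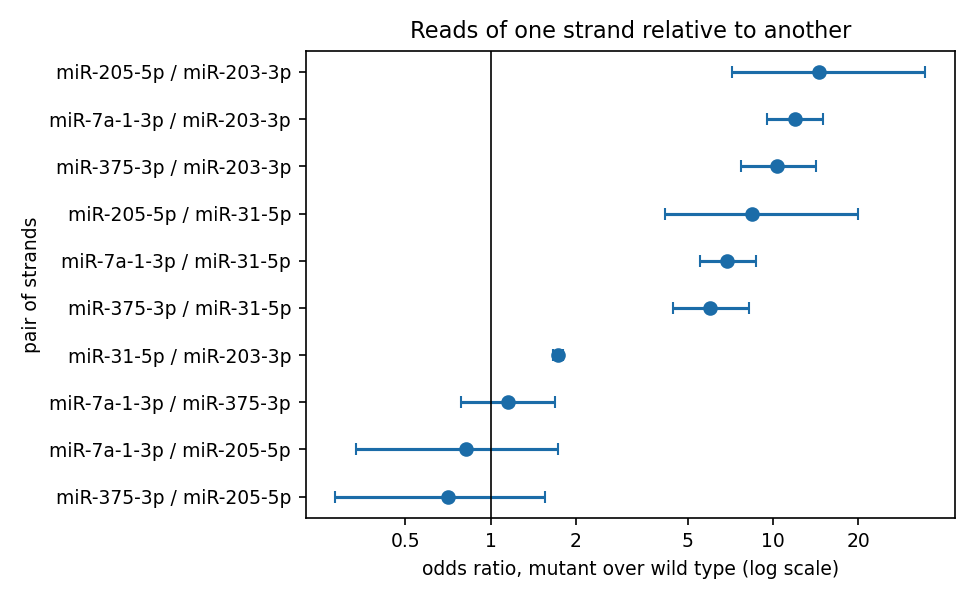
Odds ratio (mutant over wild type, log axis) of the reads of the first strand to those of the second, for the 10 pairs of members; bars are exact conditional 95% intervals and the vertical line marks equality. The 6 pairs of a rare with an abundant strand lie between 5.98 and 14.6, miR-31-5p over miR-203-3p lies at 1.73, and the 3 pairs of rare strands cross the line.

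Most listed miRNAs were higher in the mutant liver, and so were most listed epithelial markers. The epithelial list holds 14 hairpins, of which 12 had a listed strand, while mir-96 and mir-182 had none. As the deposited table leaves out folds under 2 on the authors' scale, strands without a row may be present and little changed. Of its 13 listed strands that are not among the 5, 12 were at least 2-fold higher and none lower, with a median log2 ratio of 3.79. Over all 276 tested miRNAs, 62.0% were higher, 7.25% were lower and the median was 2.77. The exception on the list was miR-203-5p. The miR-200 family, which keeps epithelial cells from losing their identity by repressing Zeb factors, supplied the abundant ones. miR-200c-3p went from 3.06 to 326 RPM, 107-fold higher (interval 76.5 to 153), and miR-429-3p from 17.2 to 629 RPM, 36.5-fold higher. miR-200b-3p, miR-141-3p, miR-200a-3p and miR-200a-5p were 28.8-fold, 27.5-fold, 17.4-fold and 7.18-fold higher. miR-34c-5p and miR-34b-5p, abundant in ciliated epithelium, were 10.7-fold and 13.9-fold higher, from 62 and 5 wild-type reads. miR-183-3p, from a hairpin known for its role in sensory epithelia, had 1 wild-type and 107 mutant reads, a ratio of 66.2 (interval 11.6 to 2639). The 5p strand of that hairpin is not listed. The 13 strands summed to 172 RPM in wild-type and 4527 RPM in mutant liver, below miR-203-3p and miR-31-5p in the first library and above both in the second.

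Members were also counted against the 7 listed miR-200 family strands, which again needs no scaling. In the wild type there were 9133 miR-203-3p reads per 1000 reads of those strands, and in the mutant 215. For miR-31-5p the values were 2736 and 111. The rare strands, which were higher by RPM, were lower on this count: miR-7a-1-3p had 46.1 and 12.9 reads per 1000, miR-375-3p 26.2 and 6.37, and miR-205-5p 4.28 and 1.47. The interval of the mutant to wild-type ratio was below equality for all 5, the closest being miR-205-5p with 0.343 (interval 0.168 to 0.814). The reference strands were themselves far higher in the mutant, with 1867 wild-type and 82254 mutant reads, and miR-200b-3p was 28.8-fold higher by RPM. The median ratio by RPM over all 276 tested miRNAs was 6.83, so being lower on this count is not particular to the members.

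Counted against miR-122-5p, the miRNA that defines hepatocytes, all 5 members were higher in the mutant. miR-122-5p was itself 2.05-fold lower by RPM, so this count raises the ratio of every listed miRNA by that factor. By RPM, only 7.25% of the 276 tested miRNAs were 2-fold lower and 62.0% were 2-fold higher. Most listed miRNAs are thus higher on this count, members or not. The level of miR-122-5p itself was 14951 RPM in wild-type and 7303 RPM in mutant liver. It was thus present in both libraries, though far below miR-192-5p, at 326657 RPM in wild-type and 117503 RPM in mutant liver. Per 1000 of its reads there were 99.8 miR-203-3p reads in the wild type and 130.9 in the mutant, a ratio of 1.31 (interval 1.28 to 1.34), so the direction of miR-203-3p turned on this count. miR-31-5p went from 29.9 to 67.7 reads per 1000, 2.27-fold higher (interval 2.19 to 2.35). miR-7a-1-3p, miR-375-3p and miR-205-5p were 15.6-fold, 13.5-fold and 19.2-fold higher.

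The list called endocrine here covers endocrine and neuroendocrine hairpins, including neuronal ones. It holds 14 hairpins, and 6 had a listed strand. Its 4 listed strands besides the members miR-7a-1-3p and miR-375-3p were from miR-212, miR-132 and miR-129, not from hairpins particular to endocrine cells. All 4 were at least 2-fold higher, with a median log2 ratio of 3.36, beside 62.0% higher and a median of 2.77 over all 276 tested. miR-212-3p, induced by neuronal activity through CREB, had 4.64 and 47.3 RPM and was 10.2-fold higher (interval 7.74 to 13.7), and miR-212-5p was 10.3-fold higher. miR-132-5p, from the same cluster, was 6.47-fold higher from 13 wild-type reads. The neuronal miR-129-5p had 10 wild-type and 357 mutant reads, or 0.875 and 19.3 RPM. No strand of mir-7a-2, mir-7b, the mir-9 hairpins, mir-124, mir-153 or mir-184 is listed, nor one of the pancreatic acinar hairpins mir-216a, mir-216b, mir-216c and mir-217. These are not analysed here.

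Markers of other liver cell types differed between the same 2 libraries. The 14 listed hepatocyte strands, from all 10 hairpins of that list, summed to 645190 RPM in wild-type and 368823 RPM in mutant liver, with 3 lower by 2-fold and none higher, beside 7.25% lower and 62.0% higher over all 276 tested. The most abundant, miR-192-5p, was 2.78-fold lower. The hepatocyte sum also holds miRNAs that are not limited to hepatocytes. Among them are miR-22-3p (187442 RPM in wild-type and 153904 RPM in mutant liver) and miR-21a-5p (30328 and 34401 RPM). The 8 listed leukocyte strands, from 5 of 6 hairpins, summed to 1861 and 9999 RPM, and all 8 were higher, with a median log2 ratio of 3.04 beside 2.77 over all 276. Their most abundant, miR-142a-5p, was 4.95-fold higher. Of the 8 endothelial and stromal hairpins, the 4 with a listed strand are the stromal miR-199 and miR-214 hairpins, and no strand of the endothelial mir-126a is listed. Their 6 strands were all higher, with a median log2 ratio of 3.69, against 62.0% of all 276 tested, and miR-199a-3p and miR-199b-3p, which carry equal counts, were 12.8-fold higher. The 1 listed muscle strand, miR-133a-3p, had 41 reads in each library and a ratio of 0.619 (interval 0.391 to 0.978). No listed miRNA, on a marker list or not, was at 0 reads in either library. On every marker list, strands with a fold under 2 on the authors' scale are missing from the deposited table. Counts such as all strands higher therefore cover listed strands only, and unlisted markers may be present and little changed. The part of these cell types in the members' differences was not tested.

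**Figure D4:**
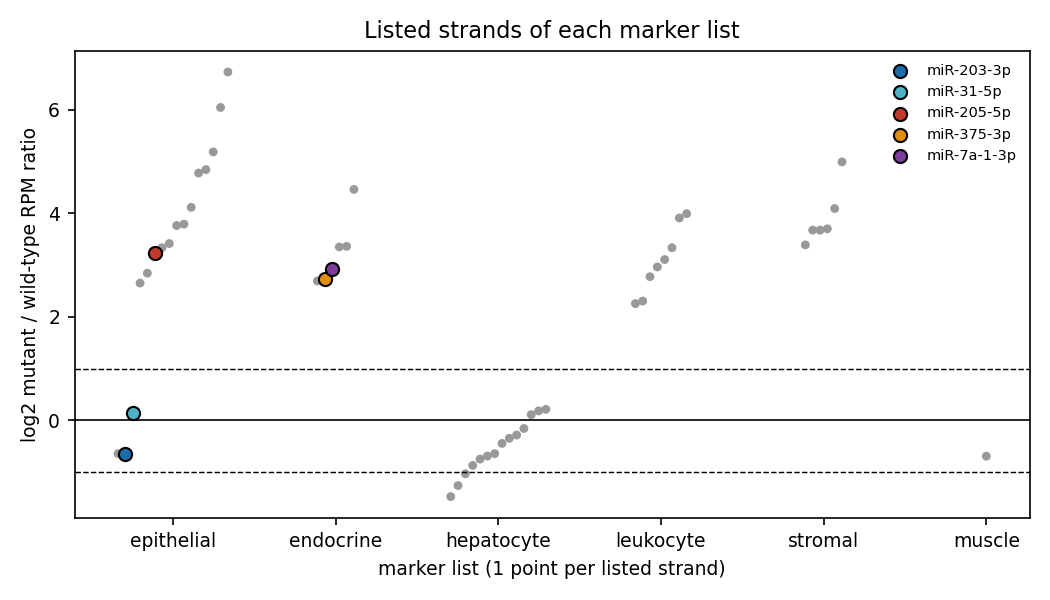
Log2 ratio of mutant to wild-type RPM of each listed strand of 6 marker lists, 1 point per strand, ordered within a list; coloured points are members, the solid line marks equality and the dashed lines 2-fold differences. miR-203-3p and miR-31-5p lie in the range of the hepatocyte strands, below all other epithelial strands but miR-203-5p, and the 3 rare members lie among the higher strands.

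The listed miRNAs nearest to each member in ratio were found among 216 non-members with at least 100 reads, by the distance of log2 ratios over these 2 libraries. For miR-203-3p they were miR-101b-3p, miR-29c-5p and miR-378a-3p, 1.56-fold, 1.57-fold and 1.55-fold lower, and miR-101b-3p and miR-378a-3p are abundant at 12431 and 10370 RPM in the wild type. For miR-31-5p they were miR-30d-5p, miR-744-3p and miR-21a-5p, with ratios of 1.13, 1.13 and 1.13. Nearest to miR-205-5p were miR-301a-3p, miR-30d-3p and miR-181d-5p at 9.44-fold, 9.13-fold and 9.10-fold higher. Nearest to miR-375-3p were miR-411-5p, miR-132-5p and miR-155-5p at 6.71-fold, 6.47-fold and 6.86-fold. Nearest to miR-7a-1-3p were let-7i-3p, miR-130b-3p and miR-142a-3p at 7.72-fold, 7.76-fold and 7.81-fold. These 15 neighbours are at most 0.0514 from their member on the log2 scale, and for the rare members this is far less than the width of the counting interval.

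The direction of the 2 abundant strands depended on the scaling, and that of the rare strands less so. miR-203-3p was lower with library totals, with the authors' factors (ratio 0.269), with edgeR's TMM factors (0.236) and when the listed counts set the total (0.856), and of the 7 scalings it was higher only when scaled to miR-122-5p. miR-31-5p was higher by RPM and with the listed counts as total (1.48), and lower with the authors' factors (0.464), with TMM factors (0.407) and without the top miRNA of each library (0.881). The rare strands stayed at least 2-fold higher under each of these scalings. With the authors' factors, by RPM and with the listed counts as total, this was fixed by how the deposited table was made. A tested miRNA given there as higher has a fold of at least 2 on the authors' scale and a ratio of at least 4.78 by RPM. With DESeq2 size factors, which set the median listed miRNA to equality, miR-375-3p was itself that median, miR-205-5p and miR-7a-1-3p had ratios of 1.41 and 1.15, and no member was 2-fold higher. miR-203-3p and miR-31-5p then had ratios of 0.0969 and 0.167.

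**Figure D5:**
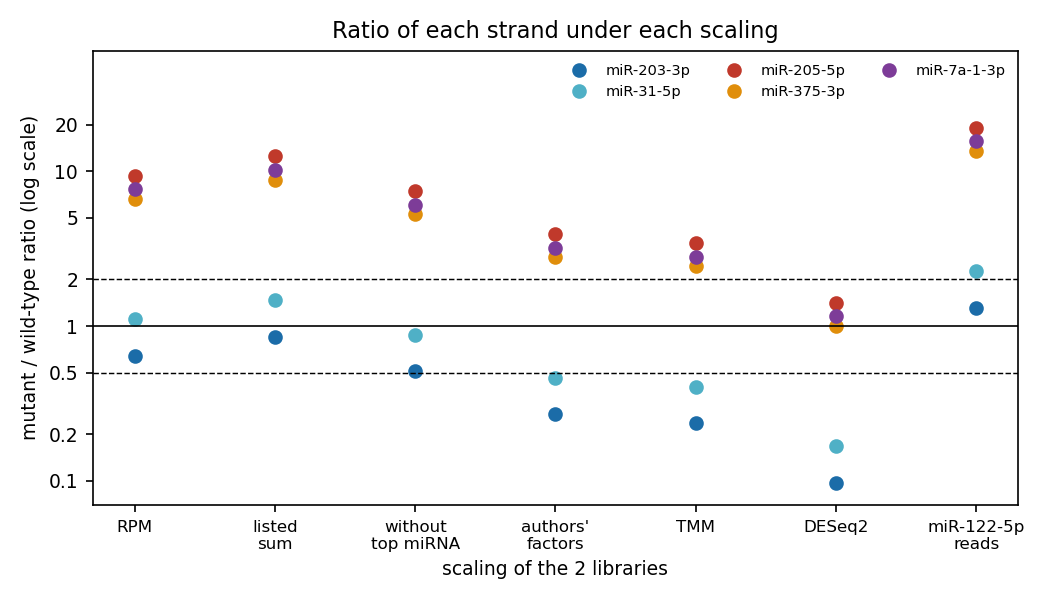
Mutant to wild-type ratio of each strand (log axis) under 7 scalings of the 2 libraries; the solid line marks equality and the dashed lines 2-fold differences. The scalings move all 5 strands by the same factor, so the order miR-205-5p, miR-7a-1-3p, miR-375-3p, miR-31-5p, miR-203-3p is the same in each column.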

How the data were processed

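Reads of both libraries were mapped to mm10 and miRBase 22.1 and sorted into 5p and 3p strands, per the labels' protocols. The submitters' processing notes name cutadapt. No aligner, counting rule or molecular identifier is named in these sources. The authors deposited raw read counts, RPM values, log2 normalized values, a signed fold score and p-values for 281 miRNAs. The authors' p-values come from 1 library per genotype and were not used. Each count divided by its RPM gave the same library total, which was the scaling here. The listed miRNAs hold 81.8% of wild-type and 61.2% of mutant reads. The deposited log2 values are log2 of 1 plus the RPM times a factor of 1.46 (wild type) or 0.611 (mutant).

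Ratios of RPM were given exact conditional binomial (Clopper-Pearson) intervals, levels exact Poisson intervals, shares Clopper-Pearson intervals and pairs exact conditional odds ratios (SciPy 1.17.1). A miRNA counted as higher or lower when it was past 2-fold with an interval on one side of 1 and had at least 10 reads in total, which left out 5 miRNAs. A count of 3 reads is 0.262 RPM in wild-type and 0.162 RPM in mutant liver. The calculations were tested on simulated data. edgeR 4.0.16 and DESeq2 1.42.0 gave scaling factors only. The members and the 7 marker lists were chosen with earlier results of these data known. Named beside the members were the 3 nearest miRNAs in ratio, strands of member hairpins, epithelial and endocrine strands with at least 100 reads, and the most abundant strand of each other list.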

Additional observations from a re-analysis of the deposited data

How the results depend on the processing

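Of all recalculations, 67 values stayed within their counting interval (for the members' median, that of miR-375-3p, the median member) or, for counts, within 1.5 times, and 52 moved further. With the authors' factors the ratios of miR-203-3p, miR-31-5p, miR-205-5p, miR-7a-1-3p and miR-375-3p were 0.269, 0.464, 3.92, 3.20 and 2.77, with 2 members and 14 hepatocyte strands lower and a members' median log2 ratio of 1.47. With TMM factors they were 0.236, 0.407, 3.44, 2.81 and 2.43, again with 2 members and 14 hepatocyte strands lower, and the median was 1.28. With DESeq2 size factors they were 0.0969, 0.167, 1.41, 1.15 and 1, with 0 members higher, 2 lower and a median of 0. Of the lists, 6 other epithelial, 1 other endocrine, 2 leukocyte and 2 stromal strands were then higher and 14 hepatocyte strands lower. These size factors centre the ratios of the listed miRNAs by construction. The TMM factors also came from the listed miRNAs alone, all kept for folds of at least 2 on the authors' scale. TMM scaling is thus not independent of that selection. With the sum of listed counts miR-203-3p, miR-31-5p and miR-7a-1-3p had ratios of 0.856, 1.48 and 10.2, and 1 hepatocyte strand was lower. Without the top miRNA of each library these ratios were 0.510, 0.881 and 6.08, and 6 hepatocyte strands were lower. Scaled to miR-122-5p, a choice made after seeing the data, miR-203-3p, miR-31-5p, miR-7a-1-3p and miR-375-3p had ratios of 1.31, 2.27, 15.6 and 13.5, 0 hepatocyte strands were lower and the median was 3.76. A pseudocount of 1 RPM lowered the ratio of miR-205-5p to 4.44 and the median to 2.15. At a fold limit of 1.5, 1 member, miR-203-3p, was lower. No paired analysis was possible because each genotype has 1 library, and none could be left out. The depth limits miR-205-5p most, with 8 wild-type reads.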
